A study of Mus musculus with 6 samples.

Results

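Brain endothelial transcripts were followed through 6 Drop-seq libraries of mouse brain myeloid cells, by 8 genes of the 19361 genes listed in the deposited tables. The genes were given as a list: Cldn5, Flt1, Slco1a4, Ly6c1, Itm2a, Igfbp7, Ctla2a and Pecam1. A barcode, the tag that Drop-seq gives to the RNA caught on 1 bead, was counted as list-positive when it held 3 or more UMIs over the 8 genes together, at any share of mitochondrial transcripts. A UMI (unique molecular identifier) marks 1 captured transcript, read from its 3′ end. Of 6000 barcodes, 320 were list-positive. These 320 were uneven. By a cut chosen after the values were seen, 32 held 10 or more UMIs from at least 5 members. The other 288 held fewer UMIs or fewer members, and 1 of them held 45 UMIs, all of Igfbp7.

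Brain capillary endothelial cells form the blood-brain barrier. They seal the paths between cells with tight junctions, carry nutrients and drugs across through transporters, and lie on a basement membrane that they share with pericytes, the mural cells of capillaries. They are not myeloid cells and do not carry Cd11b as a defining marker. RNA freed from broken cells can also be caught in droplets that hold another cell, so a UMI of an endothelial gene in a barcode is not by itself an endothelial cell.

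The suspensions came from perfused brains of female C57BL/6 mice aged 2 to 3 months, digested with a papain-based kit, run on a Percoll gradient and enriched for Cd11b on magnetic columns. The groups were unmodified mice with brain metastases (metastasis 1 and metastasis 2, 1 brain each), unmodified mice without metastases (naive 1 and naive 2, 1 brain each), Cx3cr1-/- mice with metastases (the Cx3cr1-null library) and Cx3cr1+/- mice with metastases (the Cx3cr1-heterozygous library), the last 2 libraries pooled from 2 brains each. Metastases were started with E0771 cells, a mouse mammary carcinoma line, injected into the heart, and brains were taken 2 to 3 weeks later. Per the labels, replicate 1 was sequenced on a HiSeq instrument and all other libraries on a NextSeq. Levels are given as CPM, a gene's UMIs per 1000000 UMIs of the same barcodes. Cx3cr1, the fractalkine receptor gene, had 63.5 CPM in the Cx3cr1-null library, against 1323 in the Cx3cr1-heterozygous library, 392 and 5417 in metastasis 1 and 2, and 4997 and 2173 in naive 1 and 2.

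Each library held 1000 barcodes and between 491621 and 2667099 UMIs. The median barcode held 1708.5 UMIs in metastasis 1, 323.5 in metastasis 2, 738 in naive 1, 1016 in naive 2, 1266 in Cx3cr1-null and 1476.5 in Cx3cr1-heterozygous. The median mitochondrial share was 2.96% and 3.60% in metastasis 1 and 2 and 8.64% in naive 1, but 19.3% in naive 2, 19.4% in Cx3cr1-null and 20.3% in Cx3cr1-heterozygous. For the 4 libraries of unmodified mice, the file names swap metastasis and naive relative to the labels. Libraries are called here by their labels. Rhox5, from the list of carcinoma markers, had 1340 UMIs in metastasis 1 and 0 in metastasis 2, against 0 in naive 1 and 27 in naive 2, so in replicate 2 this marker went against the labels. Cx3cr1-null held 11 and Cx3cr1-heterozygous 33. Exactly 1 barcode was shared between naive 2 and Cx3cr1-null, and 0 between any other pair of libraries.

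Promoters are shown because the members were found together in the same barcodes. RefSeq windows of GRCm38.p6, from 250 bases before a transcript start to 50 after it, were at hand for 7 of the 8 members, in 9 windows. They were searched on both strands for AGGAAG, a sequence that transcription factors of the ETS family, such as Erg and Fli1 in endothelium, can bind. It stood in 6 of the 9 windows, against 35.4% of the 32851 windows in the table. The 2 Ctla2a windows overlap and hold the same match, so it counts 2 times among the 6. By gene, 5 of the 7 members had a match in at least 1 window, a count that the share per window does not match in kind. Cldn5 (chr16:18776597-18776896, plus strand) and Igfbp7 had no match. Flt1 (chr5:147725962-147726261, minus strand) had 2 matches. Itm2a (chrX:107403311-107403610, minus strand) had 2 overlapping ones near its upstream end, and Slco1a4 (chr6:141856171-141856470, minus strand) had 1. The windows read 5′ to 3′ on the gene's strand, with the matches, on either strand, in capitals. A match is a description of these letters and not a binding site.
Cldn5: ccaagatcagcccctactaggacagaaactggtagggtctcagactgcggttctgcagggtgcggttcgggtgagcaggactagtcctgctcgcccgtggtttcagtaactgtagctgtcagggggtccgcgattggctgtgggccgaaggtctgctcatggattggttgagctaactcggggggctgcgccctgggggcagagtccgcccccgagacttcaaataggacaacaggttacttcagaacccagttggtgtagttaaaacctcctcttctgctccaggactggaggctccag
Flt1: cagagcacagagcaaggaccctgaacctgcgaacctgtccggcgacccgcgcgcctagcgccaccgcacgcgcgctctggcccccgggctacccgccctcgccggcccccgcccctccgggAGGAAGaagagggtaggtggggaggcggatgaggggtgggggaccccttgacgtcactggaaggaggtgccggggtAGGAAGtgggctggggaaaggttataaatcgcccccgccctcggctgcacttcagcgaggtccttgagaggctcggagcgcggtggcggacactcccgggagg
Itm2a: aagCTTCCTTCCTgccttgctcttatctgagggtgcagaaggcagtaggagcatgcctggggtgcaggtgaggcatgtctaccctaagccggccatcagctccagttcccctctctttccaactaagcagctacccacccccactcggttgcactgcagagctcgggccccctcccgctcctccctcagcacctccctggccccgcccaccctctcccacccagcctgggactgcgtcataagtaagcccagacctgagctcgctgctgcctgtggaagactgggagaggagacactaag
Slco1a4: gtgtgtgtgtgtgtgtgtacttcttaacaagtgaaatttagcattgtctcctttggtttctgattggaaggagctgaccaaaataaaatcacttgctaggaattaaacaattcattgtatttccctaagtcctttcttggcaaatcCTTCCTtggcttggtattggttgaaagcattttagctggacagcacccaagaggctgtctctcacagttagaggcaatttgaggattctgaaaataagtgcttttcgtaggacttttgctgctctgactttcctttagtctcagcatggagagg

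List-positive barcodes were plentiful in 2 libraries and scarce in the rest. They numbered 6 of 1000 in metastasis 1 (0.6%, 95% exact binomial interval 0.221 to 1.30%) and 2 in metastasis 2 (0.2%, 0.0242 to 0.721%). Naive 1 held 2 (0.2%, 0.0242 to 0.721%) and naive 2 held 148 (14.8%, 12.7 to 17.2%). Cx3cr1-null held 25 (2.5%, 1.62 to 3.67%) and Cx3cr1-heterozygous 137 (13.7%, 11.6 to 16.0%). Naive 2 and Cx3cr1-heterozygous stood well above the other 4 libraries, and naive 1 was level with metastasis 2. All intervals and floors given here cover counting error only.

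**Figure D1:**
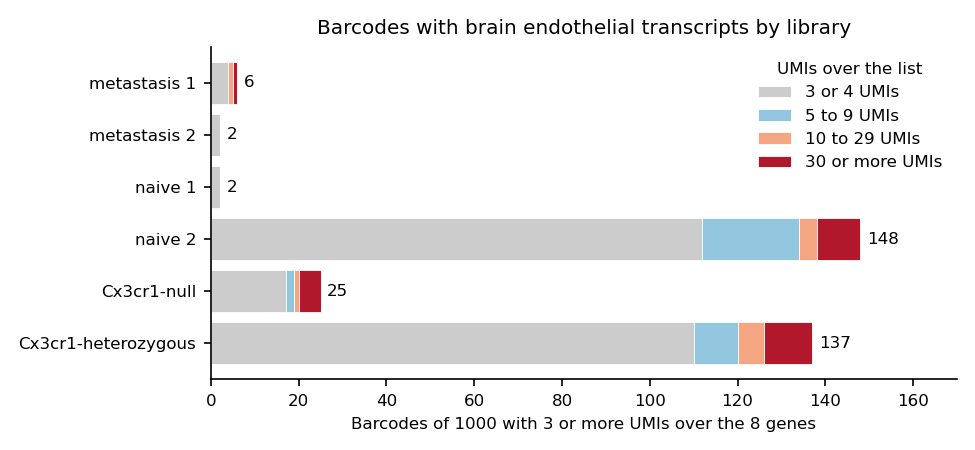
Number of list-positive barcodes among the 1000 of each library (horizontal axis), coloured by how many UMIs of the 8 genes a barcode held. The bars reach 148 in naive 2 and 137 in Cx3cr1-heterozygous, mostly from barcodes with 3 or 4 UMIs, while barcodes with 30 or more UMIs number 10 and 11 there.

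Most list-positive barcodes sat close to the threshold. Over all libraries, 171 held exactly 3 UMIs of the list and 247 held 3 or 4, while just below the threshold 433 held 2 and 948 held 1. At the other end, 27 barcodes held 30 or more: 1 in metastasis 1, 10 in naive 2, 5 in Cx3cr1-null and 11 in Cx3cr1-heterozygous. A barcode is called strong below when it held 10 or more list UMIs from at least 5 members, a definition chosen after the values were seen. Strong barcodes numbered 2 in metastasis 1, 0 in metastasis 2, 0 in naive 1, 12 in naive 2, 5 in Cx3cr1-null and 13 in Cx3cr1-heterozygous. A count of 0 of 1000 allows a share of up to 0.3%.

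The strong barcodes carried a large part of the list's UMIs where they were present. They held 115 of the 245 list UMIs in metastasis 1 (46.9%), 2731 of 3861 in naive 2 (70.7%), 741 of 1225 in Cx3cr1-null (60.5%) and 1492 of 2644 in Cx3cr1-heterozygous (56.4%). Metastasis 2 held 47 list UMIs and naive 1 held 30, none of them in a strong barcode. In naive 2, 2 barcodes with 49921 and 23889 UMIs differed in a way that beads with a missing base give, and together held 1784 list UMIs, 46.2% of the library's. Counting barcodes of 1 such bead once left 29 strong beads of 32 strong barcodes and 316 list-positive beads of 320.

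Strong barcodes had low mitochondrial shares, even in libraries where the typical barcode had a high one. The median share in strong barcodes was 2.70% in metastasis 1, 6.08% in naive 2, 4.98% in Cx3cr1-null and 5.97% in Cx3cr1-heterozygous. Of the 32, 28 lay under 10% mitochondrial UMIs. The weaker list-positive barcodes lay closer to the rest of their library: their median was 19.6% in naive 2, against 19.4% in barcodes with under 3 list UMIs, and 18.4% in Cx3cr1-heterozygous, against 20.7%. In Cx3cr1-null it was lower, at 12.8% against 19.5%. The part of the mitochondrial share in the number of list-positive barcodes was not tested.

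Among members that act at the contacts between cells, Cldn5 encodes claudin-5, the main claudin of the blood-brain barrier's tight junctions (chromosome 16, 18776847 to 18778262, plus strand, GRCm38). Summed over all barcodes of a library, Cldn5 had 1.87 and 6.10 CPM in metastasis 1 and 2, against 0 and 293 in naive 1 and 2, with 55.0 in Cx3cr1-null and 76.2 in Cx3cr1-heterozygous. Those levels rest on 5 and 3 UMIs in metastasis 1 and 2, against 0 and 476 in naive 1 and 2, with 97 in Cx3cr1-null and 181 in Cx3cr1-heterozygous. Pecam1 encodes the adhesion molecule CD31, which sits at endothelial contacts and also on platelets and leukocytes (chromosome 11, 106654217 to 106750628, minus strand). Pecam1 had 8.25 and 28.5 CPM in metastasis 1 and 2, against 12.3 and 88.1 in naive 1 and 2, with 33.4 in Cx3cr1-null and 53.9 in Cx3cr1-heterozygous. It was the most evenly spread member, and supplied 15 of the 30 list UMIs in naive 1.

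Flt1 encodes VEGF receptor 1, which binds VEGF-A and limits its action on the main VEGF receptor Kdr, and which monocytes and macrophages also carry (chromosome 5, 147561604 to 147726011, minus strand). Flt1 had 7.12 and 2.03 CPM in metastasis 1 and 2, against 0 and 248 in naive 1 and 2, with 76.0 in Cx3cr1-null and 151 in Cx3cr1-heterozygous. Slco1a4 encodes an organic anion transporter of the blood-brain barrier (chromosome 6, 141805440 to 141856199, minus strand). Slco1a4 had 5.25 and 8.14 CPM in metastasis 1 and 2, against 0.818 and 111 in naive 1 and 2, with 58.4 in Cx3cr1-null and 99.7 in Cx3cr1-heterozygous. In both genes naive 1 was lowest and naive 2 highest, so the groups overlapped.

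Ly6c1 encodes a lipid-anchored surface protein of endothelium and some leukocytes whose near copy Ly6c2 marks inflammatory monocytes (Ly6c1: chromosome 15, 75044018 to 75048830, minus strand). Ly6c1 had 6.75 and 20.3 CPM in metastasis 1 and 2, against 0.818 and 349 in naive 1 and 2, with 185 in both Cx3cr1-null and Cx3cr1-heterozygous. Ly6c2 had 108 and 16.3 CPM in metastasis 1 and 2, against 13.9 and 245 in naive 1 and 2, with 284 in Cx3cr1-null and 191 in Cx3cr1-heterozygous. Of the 50-base windows in the last 300 bases of the longest Ly6c1 transcript, 29.9% also occur in Ly6c2, so reads could be split between these 2 genes in the deposited counts. The strong barcodes held unequal shares of them: 784 of the 1361 Ly6c1 UMIs and 48 of the 1665 Ly6c2 UMIs. Itm2a encodes a small integral membrane protein (chromosome X, 107397099 to 107403376, minus strand). Itm2a had 2.25 and 2.03 CPM in metastasis 1 and 2, against 1.64 and 79.5 in naive 1 and 2, with 70.3 in Cx3cr1-null and 83.7 in Cx3cr1-heterozygous. Its naive 2, Cx3cr1-null and Cx3cr1-heterozygous values had overlapping intervals, of 66.4 to 94.5, 58.5 to 83.8 and 72.5 to 96.2.

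Igfbp7 and Ctla2a are the secreted members. Igfbp7 encodes a binding protein of the vascular basement membrane that mural cells also make (chromosome 5, 77349240 to 77408041, minus strand). Igfbp7 had 28.1 and 22.4 CPM in metastasis 1 and 2, against 3.27 and 836 in naive 1 and 2, with 129 in Cx3cr1-null and 300.02 in Cx3cr1-heterozygous. Ctla2a encodes an inhibitor of cathepsin L-like proteases that was first described in activated T cells (chromosome 13, 60934155 to 60936625, minus strand). Ctla2a had 32.2 and 6.10 CPM in metastasis 1 and 2, against 5.73 and 374 in naive 1 and 2, with 86.7 in Cx3cr1-null and 163 in Cx3cr1-heterozygous. No 50-base window in the last 300 bases of Ctla2a occurs in its neighbour Ctla2b, and Ctla2b ranged between 19.1 and 51.8 CPM over the 6 libraries.

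**Figure D2:**
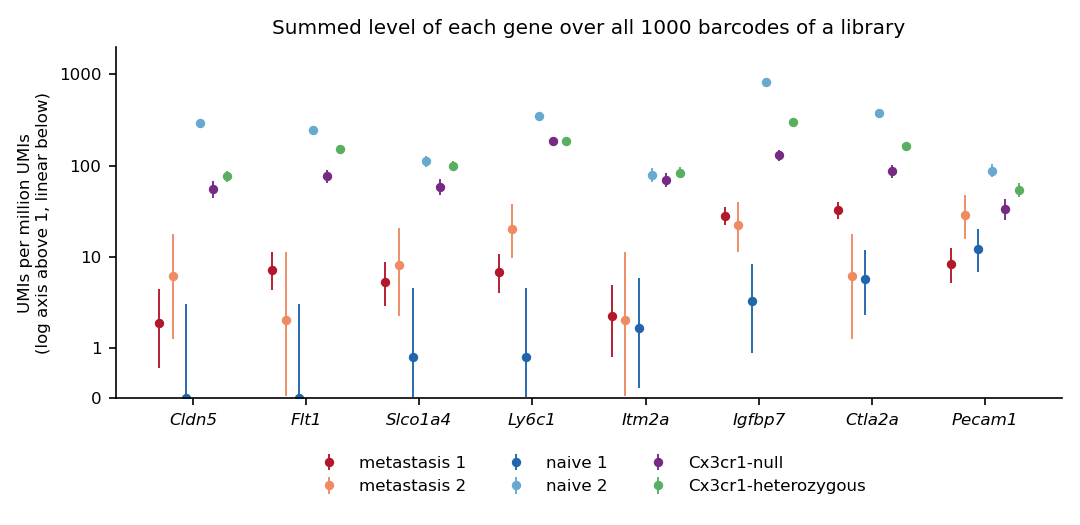
CPM over all 1000 barcodes of a library (vertical axis, logarithmic above 1 and linear below) for each of the 8 genes, with exact Poisson 95% intervals as bars. Naive 2 is highest for 7 of the genes and lies close to both Cx3cr1 libraries for Itm2a, while naive 1 is at 0 for Cldn5 and Flt1. In naive 2, 1 bead gave 65.3% of the Igfbp7 UMIs and 63.9% of the Cldn5 UMIs.

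The same libraries were high for most members, while the order of the low ones varied. Naive 2 was highest for 7 of 8, and Cx3cr1-heterozygous for Itm2a. The rank of naive 2 rests in part on 1 bead of 2 barcodes. It held 65.3% of the library's Igfbp7 UMIs, 63.9% of Cldn5, 56.5% of Ctla2a and 41.3% of Pecam1, but 22.6% of Flt1 and 11.1% of Ly6c1. Without that bead the whole list had 1341 CPM in naive 2, against 2380 with it and 1113 in Cx3cr1-heterozygous. Cx3cr1-heterozygous exceeded Cx3cr1-null for 7 of 8, Ly6c1 being level at 185. Naive 2, Cx3cr1-null and Cx3cr1-heterozygous exceeded the other 3 libraries for each of the 8, although for Pecam1 the intervals of Cx3cr1-null (25.5 to 43.1) and metastasis 2 (15.6 to 47.8) overlapped. In a library's sum, fewer cells of a type and less RNA per cell cannot be told apart.

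The comparison of metastasis with naive brains gave no call. The list-positive share averaged 0.4% ± 0.283 in metastasis libraries and 7.5% ± 10.3 in naive libraries (SD, n = 2 each), a difference of −7.1 percentage points (exact two-sided permutation test, p = 1, and this design cannot go below 0.333). With naive 2 left out the difference turned to 0.2 points, metastasis above naive. Over all barcodes, 6 of 8 members passed edgeR's filter on low counts, which Cldn5 and Itm2a did not. Their log2 fold changes, metastasis over naive, were −4.50 ± 2.17 for Flt1, −4.02 ± 1.97 for Igfbp7, −3.81 ± 2.05 for Ly6c1, −3.18 ± 1.69 for Ctla2a, −3.13 ± 1.71 for Slco1a4 and −1.57 ± 1.06 for Pecam1 (± SE). Their median was −3.49, beside 0.02 over all 9678 genes tested. None passed: every adjusted p was 1.00 in edgeR's quasi-likelihood test with Benjamini-Hochberg adjustment.

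No gene of any kind passed in that test (0.0% of the 9678, with 71 at an unadjusted p under 0.05), and DESeq2 called 5 genes (0.0517%) and 0 members. In 0 of the 6 members did the CPM of the metastasis and naive libraries separate without overlap, beside 23.7% of the genes tested. Without the filter on low counts, edgeR called 110 of 18205 genes (0.604%), and 7 of the 8 members were among them, all lower in metastasis. The fold changes in that fit were close to those above, and the standard errors smaller, as for Flt1 at −4.45 ± 0.75 (adjusted p = 5.82e-06). Pecam1 was the member not called, at −1.57 (adjusted p = 0.989). All of these directions rest on the library labelled naive 2: without it the median of the 4 members that passed the filter was 2.15, metastasis above naive.

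The replicates went opposite ways. In replicate 1, the list had 91.9 CPM in metastasis 1 and 24.5 in naive 1, a log2 ratio of 1.90 (interval 1.35 to 2.50). In replicate 2 it had 95.6 in metastasis 2 and 2380 in naive 2, a log2 ratio of −4.64 (−5.08 to −4.22). Igfbp7 was 3.10 log2 units higher in metastasis 1 than in naive 1, and 5.22 log2 units lower in metastasis 2 than in naive 2. Flt1 was at least 2.90-fold higher in metastasis 1, with 19 UMIs against 0 in naive 1, taking 3 UMIs in that library as the floor. Cldn5 had 5 UMIs in metastasis 1 and 0 in naive 1, too few for a bound above 1. Pecam1 was not separable in replicate 1, at −0.57 (−1.59 to 0.48), and was lower in metastasis 2 at −1.63 (−2.54 to −0.84). Sequencer and replicate number are the same split. In replicate 1 the median mitochondrial share was 2.96% in metastasis and 8.64% in naive, and in replicate 2 it was 3.60% and 19.3%. It was higher in naive in both replicates, while UMIs of the carcinoma gene Rhox5 changed sides, as given above. The part of sequencer, mitochondrial share and Rhox5 in this result was not tested.

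The number of members per barcode differed between strong and other list-positive barcodes, with an overlap at 5. Of the 32 strong barcodes, 22 held all 8 members, 6 held 7, 1 held 6 and 3 held 5. Of the other 288, 43 held 1 member, 123 held 2, 98 held 3, 21 held 4 and 3 held 5. The strong barcodes were chosen for holding at least 5 members, so a less circular count takes each member in turn and chooses barcodes by the other 7. Among barcodes with 10 or more UMIs over the other 7 from at least 4 of them, Igfbp7 was found in 32 of 32, Cldn5, Flt1 and Ly6c1 each in 31 of 32, and Ctla2a in 30 of 31. Itm2a was found in 30 of 32, Slco1a4 in 29 of 32 and Pecam1 in 24 of 32.

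Where the other 7 members were absent, each member was less frequent, by a share that differed widely between libraries. Over all libraries, Igfbp7 was found in 244 of 4543 such barcodes (5.37%, interval 4.73 to 6.07%), Ly6c1 in 208 of 4507 (4.62%) and Flt1 in 203 of 4502 (4.51%). Ctla2a was found in 3.26%, Pecam1 in 2.41%, Cldn5 in 1.87%, Slco1a4 in 1.80% and Itm2a in 1.65%. In naive 2 alone the shares reached 17.4% for Ly6c1, 16.6% for Igfbp7 and 14.2% for Flt1, and in Cx3cr1-heterozygous 16.2% for Igfbp7 and 15.7% for Flt1. In naive 1 none was above 1.41%, the share of Pecam1. Barcodes with 3 or more UMIs over the other 7 lay between, at 37.8% for Igfbp7, 32.1% for Ly6c1, 28.9% for Flt1 and 15.1% to 20.8% for the remaining 5. That group includes the barcodes with 10 or more, so its middle place is partly a mix and does not show a graded change. For Cldn5 in Cx3cr1-heterozygous, 17 of its 130 barcodes held a UMI, and 13 of those 17 had 10 or more UMIs over the others. Strong barcodes also held more UMIs in all than the typical barcode, with a median of 6422 in metastasis 1, against 1702 in its barcodes with under 3 list UMIs. The medians of strong barcodes were 2454.5 in naive 2, against 970 in those with under 3, 5019 in Cx3cr1-null, against 1245, and 5545 in Cx3cr1-heterozygous, against 1414.

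**Figure D3:**
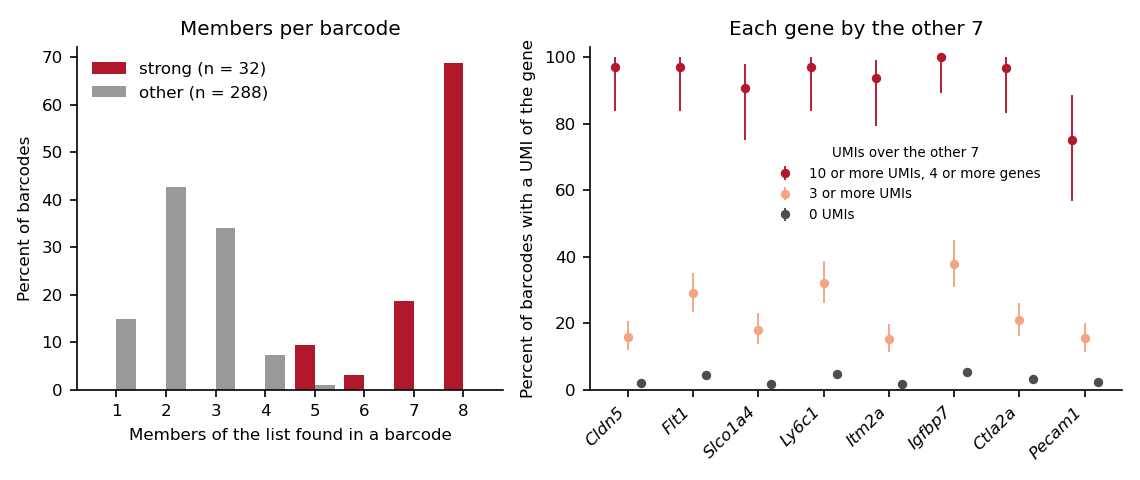
Left, percent of strong barcodes (n = 32) and of the other list-positive barcodes (n = 288) by the number of members they held. Right, percent of barcodes with a UMI of each gene, for barcodes grouped by their UMIs over the other 7 genes, with exact binomial 95% intervals as bars: the top group runs from 75.0% for Pecam1 to 100% for Igfbp7, and the group with 0 UMIs of the others, pooled over the 6 libraries, is highest for Igfbp7 at 5.37%, and reaches 17.4% for Ly6c1 in naive 2 alone. The middle group includes the top group.

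The strong barcodes also held endothelial genes outside the list. Of 28 further endothelial identity genes, 28 were found in them, 24 of them in at least 16 of the 32 barcodes, and 27 had a higher CPM there than in microglial barcodes. Esam, an endothelial adhesion molecule, had 210 of its 312 UMIs (67.3%) in the strong barcodes, and the stem cell antigen gene Ly6a had 714 of 1779 (40.1%). Other identity genes were far less confined to the strong barcodes: Ly6e had 549 of 10751 UMIs (5.11%) there and Klf2 403 of 12732 (3.17%). Cdh5, the defining cadherin of endothelium, had 79 of 124 UMIs there, in 20 barcodes. Each strong barcode held at least 18 UMIs of this identity list, a count that does not by itself mark endothelium. Klf2 and Ly6e had 1612.5 and 1237 CPM in microglial barcodes, and 1 microglial barcode of metastasis 2, with 10078 UMIs in all, held 112 identity UMIs. The strong barcode with 18, in metastasis 1, held 0 UMIs of Cdh5, Kdr and Esam, 1 of Ramp2 and 2 of Ptprb, beside 23 mural UMIs. All strong barcodes together held 2.12% of the UMIs of the 6 libraries.

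Barrier and junction genes were found alongside. Of 16 transporters of the barrier, all 16 had UMIs in the strong barcodes, and 15 were higher there than in microglial barcodes, the amino acid transporter Slc6a6 being the exception. Slc2a1, the glucose transporter GLUT1, was found in 28 of 32 and Slc3a2, a subunit of amino acid exchangers, in 29 of 32. Of the 13 junction genes, 11 were found under the symbols searched and 10 were higher in strong than in microglial barcodes. The lists overlap: the transporter gene Abcb1a and the junction genes Esam and Cdh5 also belong to the identity list above. Tjp1, the scaffold protein ZO-1, was found in 20 of 32, and F11r, which microglial barcodes also held, in 14 of 32.

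Markers of vessel segment and state were patchier. Of 12 venous or inflammation-linked genes, 1 was found in at least 16 strong barcodes, and of 11 arterial genes also 1, namely Mgp in 17. Lcn2, an iron-binding protein that inflamed endothelium makes, had 489 of its 825 UMIs in strong barcodes, in 8 of them, of which 481 UMIs were in naive 2. The adhesion gene Selp had 26 of its 33 UMIs in 1 strong barcode of metastasis 1. Among 15 genes of growing vessels, Col4a1 and Col4a2, the main collagen chains of the basement membrane, had 264 and 181 UMIs in 17 strong barcodes each, of which the 2 barcodes of the leading naive 2 bead gave 139 and 75 for Col4a1 and 84 and 36 for Col4a2. Apln, a tip cell peptide, had 76 of its 89 UMIs in 4 strong barcodes, and the 2 naive 2 barcodes of 1 bead held 55 and 18 of them.

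Composition varied widely between strong barcodes. Igfbp7 made up 2.90% to 51.0% of a barcode's list UMIs (median 18.7%) and was the leading member in 10 of 32. Ly6c1 ran from 0 to 66.7% (median 18.3%) and led in 8, and Ctla2a from 0 to 60% (median 10.9%) and led in 7. Pecam1 led in none, with a median of 2.55%. In Cx3cr1-null the second strong barcode held 128 Ly6c1 and 2 Ctla2a UMIs, while the first held 31 and 102. The leading barcode of naive 2 held 607 Igfbp7, 239 Ctla2a and 200 Cldn5 UMIs, and its 6 Slco1a4 UMIs were fewer than the 24 in the first strong barcode of Cx3cr1-null, which held 278 list UMIs in all. Without that bead, Igfbp7 made up 22.1% of the list UMIs in naive 2 strong barcodes, against 40.1% with it, and Ly6c1 made up 24.7%, against 10.9% with it.

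Mural transcripts accompanied some strong barcodes and not others. Mural markers made up 1% or more of the UMIs in 10 of the 32 strong barcodes: 1 of 2 in metastasis 1, 3 of 12 in naive 2, 1 of 5 in Cx3cr1-null and 5 of 13 in Cx3cr1-heterozygous. The highest shares were 2.37% in naive 2 and 1.85% in Cx3cr1-null, and 3 strong barcodes held 0 mural UMIs. Rgs5, a pericyte gene, had 361 UMIs over 25 strong barcodes, and Vtn, vitronectin, 292 over 14. All 14 mural genes were found in the strong barcodes, and Acta2 and Tagln, contractile genes of smooth muscle, in 3 barcodes each. Whether an endothelial and a mural cell shared a droplet was not tested.

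**Figure D4:**
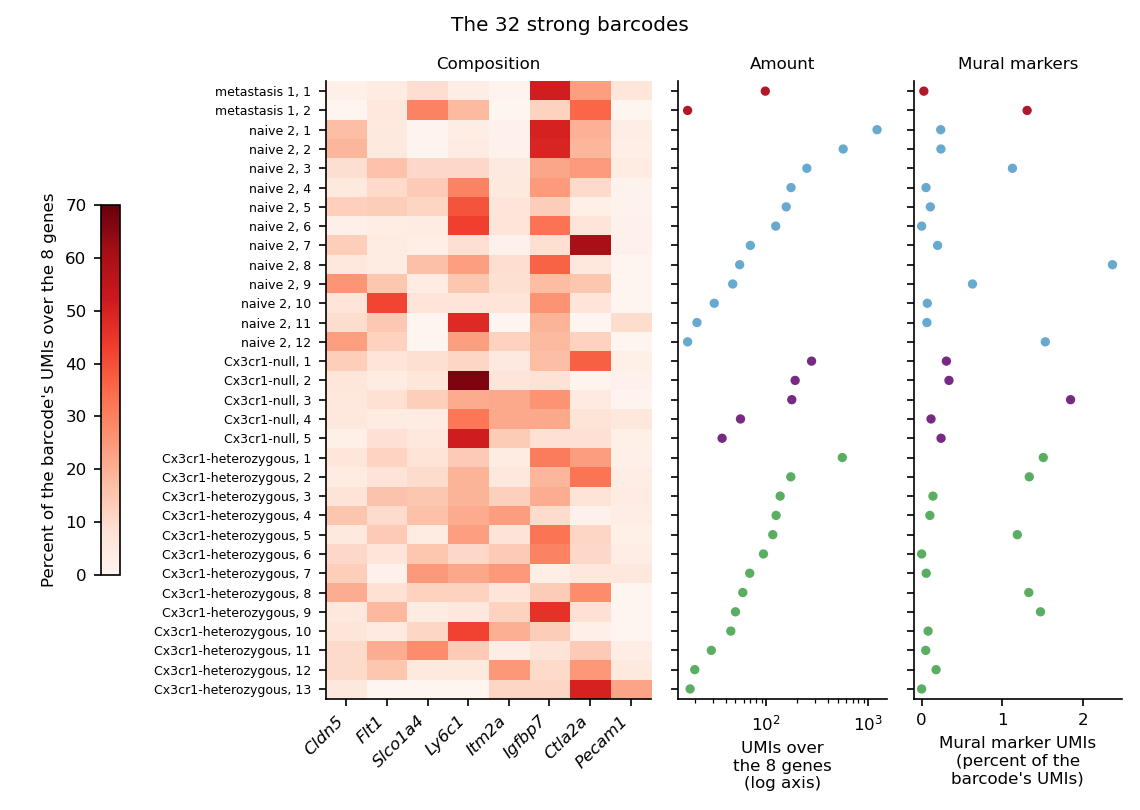
The 32 strong barcodes, 1 per row, numbered within a library by their UMIs over the 8 genes: the share of each gene in those UMIs (colour, percent), their number (logarithmic axis) and mural marker UMIs as a percent of all UMIs of the barcode. Igfbp7, Ly6c1 and Ctla2a lead in 10, 8 and 7 rows, and the mural share ranges from 0 to 2.37%.

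Restricted microglial genes were lower in strong than in microglial barcodes, while several other lists were not. The microglial rule given below uses these same genes, so this gap follows largely from the choice and is given for scale. The 9 restricted microglial genes summed to 77.9 CPM in strong barcodes of metastasis 1, against 2280 in its microglial barcodes. The strong barcodes had 228 in naive 2, against 5506 in microglial ones, 1033 in Cx3cr1-null, against 6179, and 1513 in Cx3cr1-heterozygous, against 5675. In Cx3cr1-heterozygous, 3 of the 13 strong barcodes also met the microglial rule given below, with 110, 225 and 71 UMIs of the broad microglial list. Fibroblast markers reached 10 or more UMIs in 4 strong barcodes, all of naive 2. They were led by Apod, a lipid carrier of fibroblasts and glia, with 383 and 167 of the library's 1301 UMIs in the 2 barcodes of the leading bead (42.3%). Sparcl1, which the astrocyte list holds, was found in 31 of 32 strong barcodes, while the astrocyte transporter Slc1a3 was found in 6. The astrocyte list as a whole was higher in strong barcodes of all 4 libraries, at 1324 CPM in strong and 134 in microglial barcodes of metastasis 1 and 3218 and 443 in those of naive 2. Over all libraries 3 of its 10 genes were higher in strong barcodes, and Sparcl1 alone gave 2800 of the 3218 CPM in naive 2. The monocyte and macrophage list had 2881 CPM in strong and 2110 in microglial barcodes of metastasis 1, 1006 and 841 in those of naive 2, 689 and 911 in those of Cx3cr1-null, and 989.9 and 669 in those of Cx3cr1-heterozygous. Over all libraries 3 of its 15 genes were higher in strong barcodes. Of the CPM in strong barcodes, Fn1 alone gave 683 in naive 2, 467 in Cx3cr1-heterozygous and 156 in metastasis 1. The part of these lists in the results was not tested.

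Some barcodes that reached 3 UMIs on 1 member alone carried genes of another cell type. Of 43 such barcodes, 19 were positive by Igfbp7, 8 by Ly6c1, 7 by Ctla2a, 5 by Flt1, 2 by Slco1a4 and 2 by Pecam1, and 0 by Cldn5 or Itm2a. All 43 held 5 or more UMIs of the broad microglial list, and 17 met the microglial rule given below. Such UMIs were common in all barcodes: 948 of the 1000 in metastasis 1 held 5 or more. Over all libraries, 3591 of the 6000 barcodes met that rule. Among the 19 Igfbp7 barcodes, 9 held 5 or more mural UMIs. The largest, in Cx3cr1-heterozygous, held 45 Igfbp7 UMIs beside 242 mural UMIs and 12 of the endothelial identity list. Of the 8 Ly6c1 barcodes, 5 held 5 or more UMIs of the monocyte and macrophage list, up to 121 in Cx3cr1-null, where the barcode held 8 Ly6c1 and 80 Ly6c2 UMIs. Of the 7 Ctla2a barcodes, 3 held 5 or more lymphoid UMIs, at 9 and 12 in metastasis 1 and 23 in naive 1, and these 3 were the only Ctla2a barcodes of those libraries. In metastasis 1 all 4 list-positive barcodes that were not strong rested on 1 member.

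Carry-over was read in microglial barcodes, defined by 10 or more UMIs over 16 microglial genes, at least 2% of the barcode's UMIs, and 1 or more UMI of the 9 restricted ones. There were 89 in metastasis 1, 706 in metastasis 2, 870 in naive 1, 478 in naive 2, 838 in Cx3cr1-null and 610 in Cx3cr1-heterozygous. Those that were themselves list-positive were set apart: 0 in metastasis 1, 1 in metastasis 2, 1 in naive 1, 60 in naive 2, 13 in Cx3cr1-null and 79 in Cx3cr1-heterozygous. In the remaining microglial barcodes the list had 58.1 and 76.5 CPM in metastasis 1 and 2, against 15.3 and 387 in naive 1 and 2, with 233 in Cx3cr1-null and 280 in Cx3cr1-heterozygous. The mean over the 6 libraries was 175 ± 147 (SD, n = 6). Naive 2, Cx3cr1-heterozygous and Cx3cr1-null, in that order, held most list UMIs in strong barcodes and had the highest CPM in microglial ones. The order did not extend to metastasis 1, with 115 list UMIs in strong barcodes, and metastasis 2, with 0: their CPM, 58.1 and 76.5, had overlapping intervals. After thinning to 800 UMIs, Cx3cr1-heterozygous (494) stood above naive 2 (488). Naive 2, Cx3cr1-null and Cx3cr1-heterozygous also had the highest median mitochondrial shares, at 19.3%, 19.4% and 20.3%. The part of strong barcodes or of the mitochondrial share in the carry-over was not tested.

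The share of microglial barcodes with any list UMI followed. It was 12.4% (6.33 to 21.0%) in metastasis 1, 3.69% (2.42 to 5.36%) in metastasis 2, 1.84% (1.06 to 2.97%) in naive 1, 50% (45.1 to 54.9%) in naive 2, 32% (28.8 to 35.3%) in Cx3cr1-null and 53.1% (48.8 to 57.4%) in Cx3cr1-heterozygous. Thinned to 800 UMIs, with shallower barcodes left out, the shares were 3.37% in metastasis 1, 1.89% in metastasis 2, 1.44% in naive 1, 33.6% in naive 2, 19.7% in Cx3cr1-null and 32.8% in Cx3cr1-heterozygous. The thinning left 53 of 705 barcodes in metastasis 2, 416 of 869 in naive 1 and 274 of 418 in naive 2. The same 3 libraries stayed above the others. At these levels, 1 or 2 UMIs of the list in a barcode cannot be told from carry-over.

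Strong barcodes were chosen for many UMIs of these genes and the microglial ones for under 3, so the gap between them follows from the choice and is given for scale only. Cldn5 had 3702 CPM in the strong barcodes of naive 2, against 23.3 in the microglial ones, which is 0.63% of it. In Cx3cr1-null it had 2372 in strong barcodes, against 18.0 in microglial ones (0.76%), and in Cx3cr1-heterozygous 1683, against 23.7 (1.41%). In metastasis 1 and naive 1, 0 Cldn5 UMIs were found in microglial barcodes, which allows up to 16.5 and 3.32 CPM by the exact Poisson limit. Igfbp7 and Ly6c1 were the most frequent members in naive 2, in 67 and 55 of the 418 microglial barcodes, and Flt1 was in 47.

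The mix of members differed in value between strong and microglial barcodes for several genes, with no test. Flt1 made up 7.43% of the list UMIs in the strong barcodes of naive 2, against 19.1% in its microglial ones. In strong barcodes of Cx3cr1-null the share was 6.07%, against 19.6% in microglial ones, and in Cx3cr1-heterozygous 10.6% against 20.8%. Pecam1 made up 2.02% of the list UMIs in strong and 9.20% in microglial barcodes of Cx3cr1-null, and 2.88% and 7.39% in those of Cx3cr1-heterozygous. Ctla2a went the other way, at 17.9% in strong and 9.22% in microglial barcodes of naive 2, 16.1% and 7.12% in those of Cx3cr1-null, and 18.0% and 10.03% in those of Cx3cr1-heterozygous. In Cx3cr1-null this rested on 1 strong barcode with 102 of the 119 Ctla2a UMIs: without it the strong share was 3.67%, below the microglial one. In naive 1, which had 0 strong barcodes, Pecam1 supplied 14 of the 17 list UMIs in microglial barcodes. These shares leave out barcodes with 3 or more list UMIs, which caps what 1 barcode can add.

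**Figure D5:**
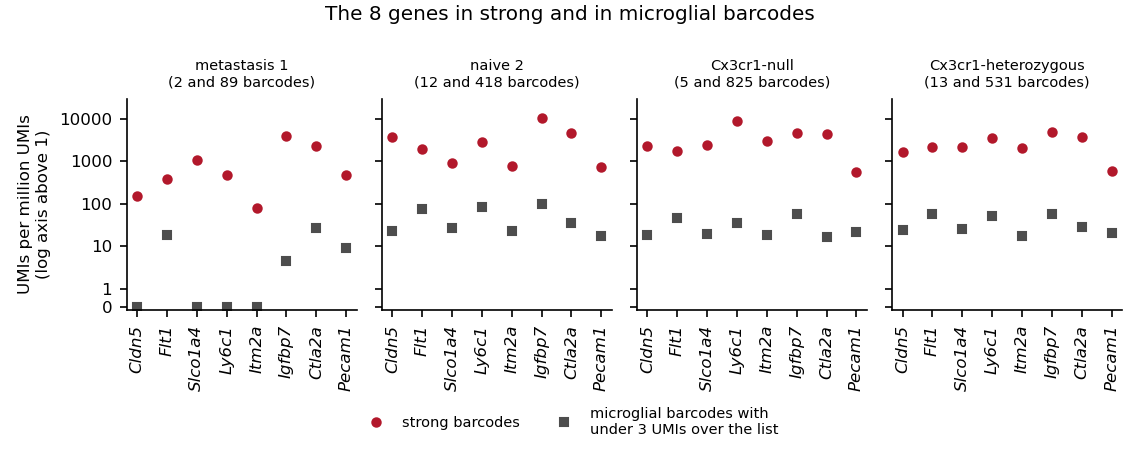
CPM of each gene (vertical axis, logarithmic above 1) in strong barcodes and in microglial barcodes with under 3 UMIs of the list, for the 4 libraries that had strong barcodes. The choice of barcodes by these same genes sets the gap. The points give its size, as for Cldn5 at 3702 in strong against 23.3 in microglial barcodes of naive 2.

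Between metastasis and naive brains the carry-over gave no call either. In sums over microglial barcodes, 4 members passed edgeR's filter, with log2 fold changes, metastasis over naive, of −2.63 ± 2.00 for Ly6c1, −2.41 ± 1.97 for Flt1, −1.31 ± 1.66 for Ctla2a and −0.09 ± 0.77 for Pecam1 (± SE). Their adjusted p was 0.999 each in edgeR's quasi-likelihood test. No gene of the 7585 tested was called (0.0%, with 75 at an unadjusted p under 0.05), and DESeq2 also called 0. A p that misses the threshold does not show that the groups were alike.

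Between the Cx3cr1 genotypes, each of which had 1 library, there is no test. The list had 694 CPM in Cx3cr1-null (656 to 734) and 1113 in Cx3cr1-heterozygous (1071 to 1156), a log2 ratio of −0.68 (−0.78 to −0.58). Igfbp7 was lowest at −1.21 (−1.44 to −0.998), followed by Flt1 at −0.99 and Ctla2a at −0.91. Slco1a4 was at −0.77, Pecam1 at −0.69, Cldn5 at −0.47 and Itm2a at −0.25 (−0.59 to 0.08). Ly6c1 was level at 0.00 (−0.21 to 0.21). Past 2-fold, 1 of the 8 members was lower in Cx3cr1-null and 0 were higher, where 2.19% of 8399 genes were that much lower and 1.24% higher. The median was −0.73 over the members and −0.06 over all those genes.

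The difference between the genotypes depended on which barcodes were summed. Under 10% mitochondrial UMIs, the list's log2 ratio was −0.10 (−0.22 to 0.02), and Ly6c1 stood at 0.73 (0.48 to 0.98). Cx3cr1-null had 161 barcodes under that limit and Cx3cr1-heterozygous 251. Without the 5 and 13 strong barcodes the ratio was −0.84 (−0.999 to −0.69). Within the strong barcodes it was 0.43 (0.30 to 0.55), with Ly6c1 at 1.35, of which 1 barcode gave 128 of the 233 Ly6c1 UMIs in Cx3cr1-null. In microglial barcodes with under 3 list UMIs it was −0.26 (−0.48 to −0.05). The pools hold 2 brains each, so the spread between mice is not known.

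Genes outside the list that were most concentrated in list-positive barcodes were partly endothelial. Of genes with at least 30 UMIs in all, the 10 highest by share of UMIs inside list-positive barcodes were Clca1 (91.8%), Apln (87.6%), Darc (85.7%), Selp (84.8%), Scgb3a1 (84.6%), Angpt2 (83.1%), Npy (82.3%), AU021092 (81.8%), Tmem252 (81.7%) and Car4 (80.1%). The median over such genes was 10.2%. Darc is the older symbol of Ackr1, the chemokine receptor of venules, Angpt2 encodes a ligand of the endothelial receptor Tek, and Car4 encodes a carbonic anhydrase of capillaries. Tmem252 and Car4 were spread over 23 and 24 strong barcodes in 4 libraries, while Selp was in 2 strong barcodes. Apln, Darc and Angpt2 were in 4, 4 and 6 strong barcodes, and without the leading naive 2 bead Apln stood at 31.2%, Darc at 64.6%, Angpt2 at 60% and Tmem252 at 69.3%. These 4 then left the 10 highest, and Wfdc1, Fabp7, Serpina3n and Ndufa4l2 took their places. Clca1 had 1 of its 49 UMIs in a strong barcode and Npy 0 of 203, so their share came from weaker list-positive barcodes. Among the members, whose own UMIs chose these barcodes, the share was 83.7% for Igfbp7, 83.3% for Ctla2a and 81.9% for Cldn5, and lowest for Flt1 (63.1%) and Pecam1 (58.8%). Without that bead it was 74.0% for Igfbp7, 76.9% for Ctla2a and 69.9% for Cldn5, with Ly6c1 and Slco1a4 at 74.3% each, and Flt1 (59.0%) and Pecam1 (51.2%) were still lowest.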

How the data were processed

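Raw UMI counts were deposited for each library as whole numbers, genes by 1000 barcodes. The submitters' processing notes name STAR, Seurat and build mm10. Versions, settings, annotation and the choice of barcodes were not given in the sources used here. Groups follow the labels, and nothing says how replicates were raised, so p-values cover only the spread between these samples, which may be technical. Coordinates are from GENCODE M21 (GRCm38).

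Members, marker lists and thresholds were chosen with earlier results of these data known. UMIs were summed per library and fitted with edgeR 4.0.16 (limma 3.58.1, R 4.3.3): TMM, filterByExpr, quasi-likelihood test, Benjamini-Hochberg adjustment over all genes, threshold 0.05. DESeq2 1.42.0 was an alternative. Shares have exact Clopper-Pearson intervals and CPM exact Poisson intervals, from SciPy 1.17.1. Floors use 3 UMIs per library. Named genes are the members, Ly6c2, Ctla2b, up to 3 genes per marker list with the most UMIs in list-positive barcodes, and the 10 other genes most concentrated there. Cdh5, Acta2, Tagln, Fn1 and Cx3cr1 were added after their values were seen. No doublet caller or mitochondrial limit was applied. The fit was tested on simulated data. Alternatives were other UMI and member thresholds, a mitochondrial limit, thinning, other scalings, a replicate block and leaving out each replicate.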

Additional observations from a re-analysis of the deposited data

Results flagged for a closer look

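The list's level went opposite ways in the replicates. Its log2 ratio of metastasis over naive was 1.90 in replicate 1 and −4.64 in replicate 2. Each value compares 1 library with 1, and the difference between the replicates was not tested.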

How the results depend on the processing

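The number of list-positive barcodes, 320, moved most with the threshold: 753 at 2 or more UMIs, 73 at 5 or more, 154 with at least 3 members, 196 without Igfbp7, 101 under 10% mitochondrial UMIs, 111 after thinning to 800 UMIs and 32 strong barcodes. Thinning and the mitochondrial limit leave fewer barcodes by construction. The metastasis minus naive share of −7.1 points was 0.2 without naive 2 and 0.4 within replicate 1, with a range of −14.4 to 0.2 over leaving out each replicate. Over the other thresholds and lists it stayed below 0. Genes called over all barcodes, 0, became 5 with DESeq2 and 110 with no filter on low counts. In microglial barcodes the count of 0 ranged from 0 to 25 over leaving out each replicate, with 25 without naive 2 and 1 without naive 1, and 0 members were called. Without naive 2 the log2 fold changes over all barcodes turned to 3.68 for Ly6c1, 2.72 for Igfbp7, 1.57 for Ctla2a and 0.33 for Pecam1, where leaving out another replicate gave values down to −4.75 for Ly6c1, −5.01 for Igfbp7, −4.89 for Ctla2a and −2.66 for Pecam1. Pecam1 in microglial barcodes was 0.48 without metastasis 1, 0.58 without naive 2 and −1.44 without metastasis 2. The null over heterozygous log2 ratio of −0.68 was −0.10 under the mitochondrial limit and −0.84 without strong barcodes. The cause of these changes was not tested.

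The replicate numbers mark the sequencer and not a shared animal. With the replicate block the share difference stayed at −7.1 points and 0 genes were called in both fits, but the members' median log2 fold change over all barcodes was −1.40, against −3.49 without the block, with Flt1 at −1.87, Igfbp7 at −1.39 and Ly6c1 at −1.41. Samples with the same number deviated in opposite directions (correlation −0.43), and a crossed pairing as a replicate block, chosen after seeing the data, called 1 gene over all barcodes and 0 in microglial barcodes. The mean carry-over ranged from 99.6 to 239 CPM over its alternatives, within 1 SD between libraries. Single libraries moved more: naive 2, at 387, was 195 under the mitochondrial limit and 154 at 4% of UMIs, Cx3cr1-null, at 233, was 111 and 122, and Cx3cr1-heterozygous, at 280, was 144 and 134. Thinning gave 494 in Cx3cr1-heterozygous and 23.6 in metastasis 2, which was 76.5. That 23.6 rests on 1 of 53 thinned barcodes with a list UMI, too few to show a change. Naive 2 and both Cx3cr1 libraries stayed above the others in each of the 6 settings. At 4% of UMIs metastasis 1 gave no microglial barcode, so that mean, 108, is over 5 libraries. With 2 libraries a group, 30 to 245 list UMIs in 3 of those 4, and 0 strong barcodes in 2 of them, depth limits what each single member can show.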
